A study of Mus musculus with 2 samples.

Results

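The serotonin receptor gene Htr2c carries 7 microRNA genes on its own strand, and these are described here in the hippocampus of young mice. They were chosen by position: every annotated microRNA gene that lies wholly inside Htr2c on the same strand was taken, which gave 7 of the 2202 microRNA genes in the count files. The set was drawn up with the counts of these libraries already known, so the counts of the members and their differences between libraries are given as a description. Small RNA was sequenced from bulk tissue labelled "layer of hippocampus", from male B6CASTF1/J mice aged 10 days, with fragments below 30 nt per the labels. The labels hold a single group with 2 biological replicates, each labelled with 3 males. The labels name no engineered allele, treatment or second age. B6CASTF1/J denotes the hybrid of C57BL/6J and CAST/EiJ, and by the usual order of such names the mother is C57BL/6J, which would give these males a C57BL/6J X chromosome. The 2 replicates carry different animal numbers and the same donor identifier, so the spread between them may be technical.

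Replicate 2 held 3495401 counts assigned to hairpin genes, and replicate 1 held 4815761. Levels are given as CPM, counts per 1000000 counts on microRNA genes of the library. They are not divided by hairpin length, since reads cover the short mature products, and whether different products were captured equally well was not tested. Where a gene had no counts, its level could still be up to 0.858 CPM in replicate 2 and 0.623 CPM in replicate 1, the levels of 3 counts. These limits, and all intervals below, cover counting error only. Red blood cell microRNAs differed between the libraries, and their list of 3 genes summed to 76.4 CPM in replicate 2 and 1229 CPM in replicate 1. Neuronal microRNAs, a list of 17 genes, made up 10.7% of the replicate 2 library and 8.23% of the replicate 1 library. Without Mir139, the most abundant of them by these counts, they made up 4.94% in replicate 2 and 5.05% in replicate 1. The Mir124a, Mir128, Mir129, Mir138 and Mir218 genes of this list share bases with other genes. Reads aligning to several places are outside gene counts, so these shares and the place of Mir139 are uncertain.

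MicroRNAs are cut from hairpin precursors, first in the nucleus by Drosha and then in the cytoplasm by Dicer, and one strand of the resulting duplex guides repression of messenger RNAs through its seed, the bases near its 5′ end. A microRNA in an intron is usually made from the transcript of its host gene, and its level also depends on how well its hairpin is cut and how long the product lasts. Htr2c encodes the 5-HT2C receptor, which signals through Gq proteins, is found on neurons, and is very abundant in the epithelium of the choroid plexus, the tissue that makes cerebrospinal fluid in the ventricles beside the hippocampus. The receptor transcript itself was not measured in these libraries. In bulk tissue, fewer cells of a type and less RNA per cell cannot be told apart.

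The mature products show which molecules the genes can make. All 7 genes had at least 1 mature product in the RefSeq table (GRCm38.p6), 11 products in all, and every one lies on the plus strand of chromosome X. Bases 2 to 8, the seed, are in capitals, and sequences run 5′ to 3′ in genomic order of the genes.
miR-3552 (gene Gm22650): aGGCUGCAggcccacuucccu
miR-764-5p: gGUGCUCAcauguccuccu
miR-764-3p: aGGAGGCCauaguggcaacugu
miR-1912-3p: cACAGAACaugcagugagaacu
miR-1264-3p: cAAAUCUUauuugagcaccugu
miR-1298-5p: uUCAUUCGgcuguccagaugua
miR-1298-3p: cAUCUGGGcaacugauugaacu
miR-1911-5p (gene Gm24627): uGAGUACAgccaugucuguuggg
miR-1911-3p (gene Gm24627): cACCAGGCauuguggucucugc
miR-448-5p: gAACAUCCugcauagugcugcc
miR-448-3p: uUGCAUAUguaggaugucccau

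No seed occurs more than once among these products: the 11 products have 11 different seeds, so the genes share a host but form no family by seed. Outside the set, 1 of the other mature products in the table has a matching seed, miR-7062-5p with the seed of miR-764-3p. Its gene, Mir7062, had 2 counts in replicate 2 and 6 in replicate 1. The 2 precursors with the most counts are shown as RefSeq gives them, with their mature products in capitals, since the deposited counts belong to the whole hairpin gene and do not separate its arms.
Mir1298 hairpin, chrX:147064905-147065002 (mm10, plus strand): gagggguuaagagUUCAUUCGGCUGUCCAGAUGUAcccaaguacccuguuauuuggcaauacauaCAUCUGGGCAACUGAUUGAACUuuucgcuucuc
Mir448 hairpin, chrX:147158210-147158321 (mm10, plus strand): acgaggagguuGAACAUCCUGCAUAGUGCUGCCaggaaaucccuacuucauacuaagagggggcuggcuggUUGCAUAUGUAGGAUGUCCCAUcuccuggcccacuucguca

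Htr2c spans 234765 bases of the X chromosome, from 146962513 to 147197277, and its microRNA genes are spread over 2 introns of the transcript Htr2c-201. Intron 2, of 90779 bases, holds 5 of them in the order Gm22650, Mir764, Mir1912, Mir1264 and Mir1298. Intron 4, of 93522 bases, holds Gm24627 and Mir448. The first 4 genes lie close together, with 2749, 7074 and 1073 bases between neighbours, and the last of them is 54218 bases from Mir1298. Mir1298 lies 7382 bases before exon 3, the nearest that any member comes to an exon of that transcript. Mir448 lies 11248 bases before exon 5. None of the 7 shares a run of 20 bases with another microRNA gene in the count files. Shorter matches and other places in the genome were not searched. The nearest microRNA genes outside Htr2c, Mir3472 at 1923098 bases before it and Mir3620 at 3350107 bases after it, had 0 counts in both libraries. Mir3472 shares at least 20 bases with 4 other genes, so its reads can fit several places.

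**Figure D1:**
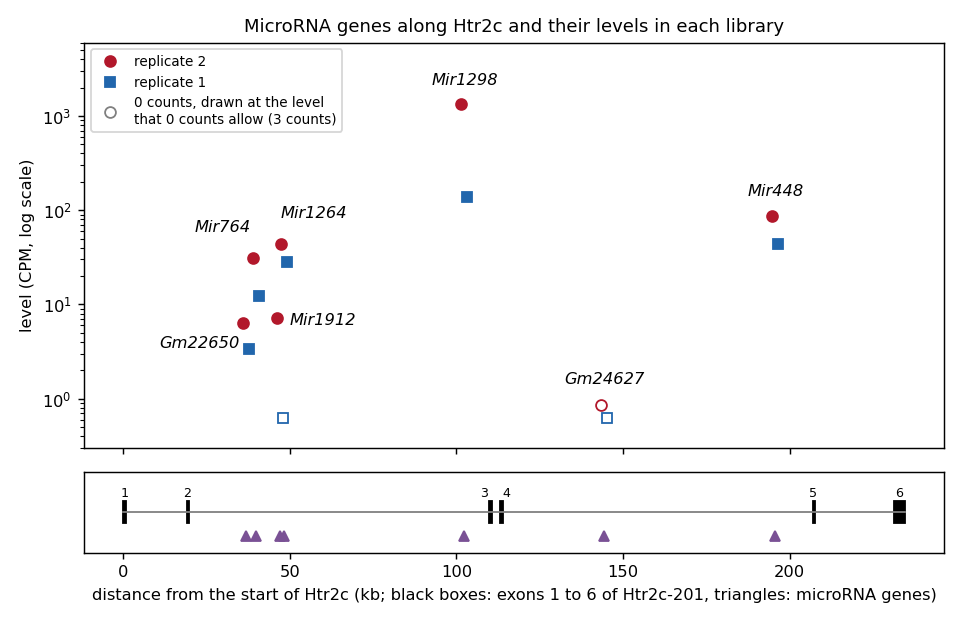
Level of each Htr2c microRNA gene (vertical axis, CPM on a log scale) against its distance from the start of Htr2c (horizontal axis, kb), with exons 1 to 6 of Htr2c-201 drawn as boxes. Circles are replicate 2 and squares replicate 1, and Mir1298 stands highest in both, at 1343 CPM in replicate 2 and 139.1 CPM in replicate 1.

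Of the 7 genes, 6 had counts and 5 reached 2 CPM in both libraries. For comparison, 442 of all 2202 genes (20.1%) and 40 of the 142 genes of the X chromosome (28.2%) reached 2 CPM in both. The set as a whole took 0.152% of counts in replicate 2 (95% exact Clopper-Pearson interval 0.148 to 0.156%) and 0.0226% in replicate 1 (0.0213 to 0.0240%). These shares do not overlap in their counting intervals. No member had a count on the opposite strand in either library, and the unstranded count of each equalled its sense count.

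Mir1298 was the most abundant member in both libraries. It had 4696 counts (1343 CPM) in replicate 2 and 670 counts (139.1 CPM) in replicate 1, a mean of 741 ± 852 CPM (SD, n = 2). The SD exceeds the mean, so the mean describes neither library. Among all 2202 genes it ranked 103 in replicate 2 and 195 in replicate 1. By mean level it stood next to Mir665 and Mir1249 above it and Mir188 and Mir31 below it. Those 4 neighbours had 873 to 1051 CPM in replicate 2 and 480 to 607 CPM in replicate 1, so Mir1298 lay above all of them in replicate 2 and below all of them in replicate 1.

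Mir448 was second in both libraries. In mouse preadipocytes its product miR-448 has been described as a repressor of the adipogenic factor Klf5. It had 307 counts (87.8 CPM) in replicate 2 and 209 counts (43.4 CPM) in replicate 1, a mean of 65.6 ± 31.4 CPM (SD, n = 2). Its neighbours by mean level were Mirlet7f-1, Mir206, Mir491 and Mir504, whose log2 ratios (replicate 2 over replicate 1) were 0.15, -1.65, -0.095 and 0.91, so genes of like mean level differed between the libraries in both directions.

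Mir1264 and Mir764 followed. Mir1264 had 152 counts (43.5 CPM) in replicate 2 and 135 counts (28.0 CPM) in replicate 1, a mean of 35.8 ± 10.9 CPM (SD, n = 2). Mir764, whose product has been studied in mouse bone-forming cells, had 108 counts (30.9 CPM) in replicate 2 and 59 counts (12.3 CPM) in replicate 1, a mean of 21.6 ± 13.2 CPM (SD, n = 2). The order Mir1298, Mir448, Mir1264, Mir764 was the same in both libraries. In replicate 1 the counts of Mir448 and Mir1264, 209 and 135, took 19.2% (16.9 to 21.7%) and 12.4% (10.5 to 14.5%) of the set, so these neighbours in the order were apart by more than counting error. Across libraries the levels of Mir448 in replicate 1 (43.4 CPM) and Mir1264 in replicate 2 (43.5 CPM) met. The ranges of Mir1264 and Mir764 also overlapped. Within each library the order held, so these overlaps arise only where the libraries are set against each other. The range of Mir1298 lay above those of all other members.

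Gm22650 and Mir1912 lay near the limit of detection. Gm22650, the gene of miR-3552, had 22 counts (6.29 CPM) in replicate 2 and 16 counts (3.32 CPM) in replicate 1. Mir1912 had 25 counts (7.15 CPM) in replicate 2 and 0 counts in replicate 1, where up to 0.623 CPM was allowed. In replicate 2 the counts of these 2 genes differed by less than counting error, with 0.414% (0.260 to 0.627%) of the set for Gm22650 and 0.471% (0.305 to 0.694%) for Mir1912. Mir1912 lies only 1073 bases from Mir1264, which had counts in both libraries.

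Gm24627, the gene of miR-1911, was not detected, with 0 counts in both libraries. GENCODE M21 draws this gene with 138 bases, and RefSeq places a hairpin of 83 bases inside it. The folding energy of its GENCODE sequence, computed with RNAfold, was -0.216 kcal/mol per base, against -0.361 to -0.472 for the other 6 members and a median of -0.369 over all 2202 genes. Only 3.86% of genes folded less stably, and 14.0% did when the RefSeq hairpin, at -0.276 per base, was used. Mir1298 and Mir1912 had the same energy per base, -0.472, while Mir1298 had 188 times the counts of Mir1912 in replicate 2. Whether folding bears on the levels was not tested. GC content ranged from 36.0% in Mir1264 to 52.7% in Mir448, and the median over all genes was 50.8%.

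The make-up of the set differed between the libraries. Mir1298 made up 88.4% of the members' counts in replicate 2 (95% interval 87.6 to 89.3%) and 61.5% in replicate 1 (58.6 to 64.4%). Mir448 made up 5.78% in replicate 2 and 19.2% in replicate 1, and Mir1264 made up 2.86% in replicate 2 and 12.4% in replicate 1. Put as ratios within a library, which no scaling between libraries can alter, Mir1298 had 15.3 times the counts of Mir448 in replicate 2 and 3.21 times in replicate 1. Against Mir1264 it had 30.9 times the counts in replicate 2 and 4.96 times in replicate 1, and against Mir764 it had 43.5 times in replicate 2 and 11.4 times in replicate 1.

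**Figure D2:**
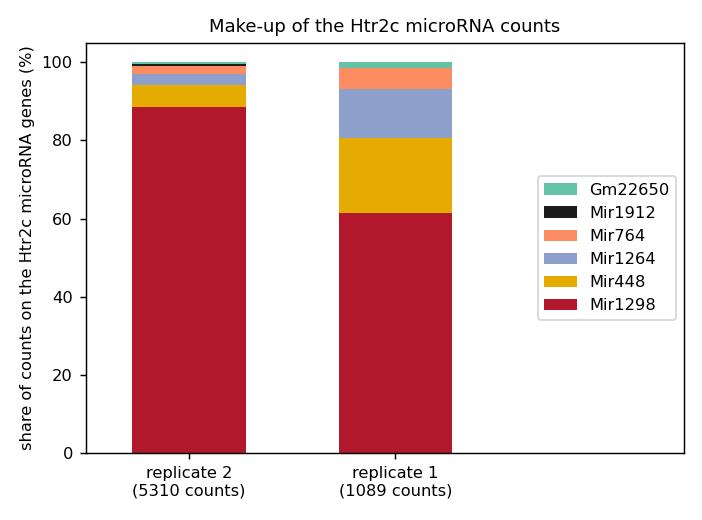
Share of each member in the counts on Htr2c microRNA genes (vertical axis, %), with 1 bar for replicate 2 (5310 counts) and 1 for replicate 1 (1089 counts). Mir1298 fills 88.4% of the replicate 2 bar and 61.5% of the replicate 1 bar.

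All 6 members with counts were higher in replicate 2, but by unequal amounts. The 7 genes summed to 1519 CPM in replicate 2, against 226 CPM in replicate 1, a ratio of 6.72 (log2 2.75, counting interval 2.65 to 2.84). Without Mir1298 the remaining members summed to 176 CPM in replicate 2, against 87.0 CPM in replicate 1, or 1.01 on the log2 scale (0.83 to 1.20), so Mir1298 decided the size of the summed ratio. Mir1298 itself had a log2 ratio of 3.27 (3.15 to 3.39), a 9.66-fold difference. Mir764 had 1.33 (0.86 to 1.82), Mir448 had 1.02 (0.76 to 1.28), Gm22650 had 0.91 (-0.073 to 1.95) and Mir1264 had 0.63 (0.29 to 0.98). The interval of Mir1298 lies above those of these 4 genes, whose own intervals all overlap one another. The level of Mir1912 in replicate 2 was 11.5-fold that of 3 counts in replicate 1. That figure leaves out the counting error of its 25 counts in replicate 2. Its exact interval began at 3.115 on the log2 scale, below the ratio of Mir1298.

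**Figure D3:**
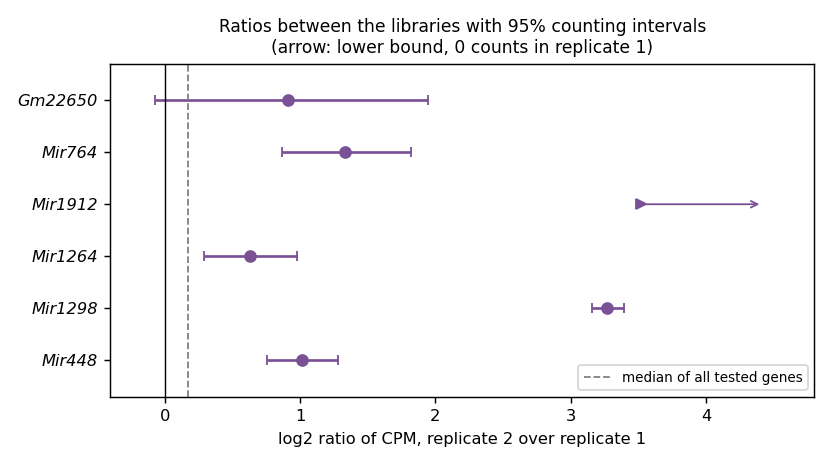
Log2 ratio of CPM, replicate 2 over replicate 1 (horizontal axis), for the 6 members with at least 10 counts, with 95% counting intervals. The dashed line is the median of all tested genes, 0.17, and Mir1298 at 3.27 stands apart from Mir764, Mir448, Gm22650 and Mir1264, which lie between 0.63 and 1.33. The arrow, marked as a lower bound, sets Mir1912 in replicate 2 against 3 counts in replicate 1. It leaves out the counting error of replicate 2, and the exact interval began at 3.115.

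Whether the ratios divide by intron cannot be judged, since Mir448 is the only intron 4 gene with counts. All intron 2 genes together had a summed log2 ratio of 2.97 (2.866 to 3.075), which included Mir1298. The intron 2 genes other than Mir1298 summed to 87.8 CPM in replicate 2, against 43.6 CPM in replicate 1, or 1.01 on the log2 scale (0.75 to 1.27). Mir448 in intron 4 had 1.02. The ratio of Mir1298 was thus further from the sum of the other intron 2 genes than that sum was from Mir448. The sum without Mir1298 hides a spread within intron 2. Mir1264 had 0.63, while the interval of Mir1912, on 25 counts in replicate 2 and 0 in replicate 1, began at 3.115.

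Among the 427 genes with at least 10 counts in each library, 2 had a log2 ratio of 3.27 or more, Mir1298 and Mir26a-2. Mir26a-2 shares bases with 1 other gene, and its value is uncertain. A total of 540 genes had 10 or more counts summed over the libraries and were tested. The median log2 ratio over the 540 genes was 0.17, 57.2% lay above 0, and the median absolute value was 0.54. The median over the 6 members was 1.17, also with Mir1912 set against 3 counts in replicate 1. Each gene's pair of counts was also compared by a binomial test (exact, two-sided), and a gene was called where its Benjamini-Hochberg adjusted p over the 540 genes was below 0.05 and its absolute log2 ratio at least 1. This test compares these 2 libraries and not conditions. Of the 540 genes, 62 were called higher in replicate 2, a background of 11.5%, and 39 were called lower, or 7.22%. Of the 6 members, 4 were called higher (Mir1298, Mir1912, Mir764 and Mir448) and 0 lower, and since the members were drawn up with these counts in view nothing is read from that count. By the same exact binomial test Mir1264 had an adjusted p of 0.000466 but a log2 ratio under 1, and Gm22650 had an adjusted p of 0.113. Of all calls 61.4% were higher in replicate 2 with library totals, and 45.5% were with DESeq2 size factors, which brought the median log2 ratio to 0.0051. Mir448, just past the minimum ratio, lost its call under both other scalings, at 0.93 with TMM and 0.85 with DESeq2.

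**Figure D4:**
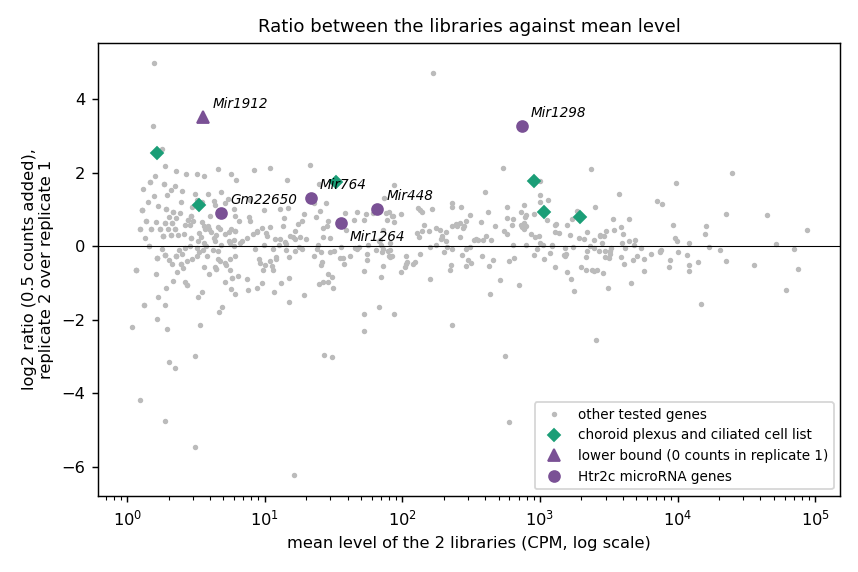
Log2 ratio, replicate 2 over replicate 1 with 0.5 counts added (vertical axis), against mean level (horizontal axis, CPM on a log scale) for the 540 tested genes. Mir1298 lies at 3.27 and 741 CPM, and the 6 tested choroid plexus and ciliated cell genes (diamonds) all lie above 0. The triangle, marked as a lower bound, is Mir1912 set against 3 counts in replicate 1, without the counting error of replicate 2.

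No other gene with at least 10 counts in each library had a log2 ratio within 1 of that of Mir1298. Likeness was taken as the absolute difference in log2 ratio over the 2 libraries, among those genes. The nearest were Mir3068 (log2 ratio 2.21), Mir329 (2.14), Mir669e (2.14), Mir140 (2.11) and Mir223 (2.08), which differed from Mir1298 by 1.06 to 1.19. Mir669e shares bases with 1 other gene, and its value is uncertain. Of these, Mir140 was more abundant than Mir1298, at 3808 CPM in replicate 2, against 880 CPM in replicate 1, and Mir223 is, like the members, on the X chromosome. Outside this filter, Mir452, tested at a mean of only 1.53 CPM, had a log2 ratio of 3.27.

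The X chromosome as a whole had near-equal shares in the libraries. Its 142 microRNA genes made up 4.24% of the replicate 2 library and 4.25% of the replicate 1 library. The Htr2c members made up 3.58% of those X-linked counts in replicate 2 and 0.532% in replicate 1. The 39 tested X-linked genes outside Htr2c had a median log2 ratio of 0.19, with 5 called higher and 4 lower in replicate 2. Over all 540 tested genes 11.5% were called higher and 7.22% lower. Another X-linked intronic cluster, the 5 genes within the chloride transporter gene Clcn5, made up 0.656% in replicate 2, against 0.621% in replicate 1. Its genes had log2 ratios of -0.30 to 0.90, and 0 of 5 were called, where all 5 were tested.

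Among 8 hosts whose introns hold at least 3 microRNA genes, of which at least 2 had 10 counts or more, Htr2c had the highest ratio of summed levels. Its log2 ratio of 2.75 was followed by 0.80 for Cdc20b, the host of the Mir449 genes, and those of the other 6 hosts lay between -0.59 and 0.08. Over genes with at least 10 counts in each library, the ratios of the Htr2c members spanned 2.64 on the log2 scale. Those of the Sfmbt2 genes spanned 2.83, and those of the other hosts spanned 0.32 to 1.54. In Sfmbt2, 116 of the 119 genes share bases with another gene, so their ratios are uncertain. The share of the most abundant gene moved more in Htr2c than in any of the other 7 hosts, with a difference of 26.9 percentage points (replicate 2 minus replicate 1), against -15.3 points for Ttll10, whose counts were few (48 in replicate 2 and 82 in replicate 1). No test was made of these differences between hosts, which rest on 2 libraries.

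**Figure D5:**
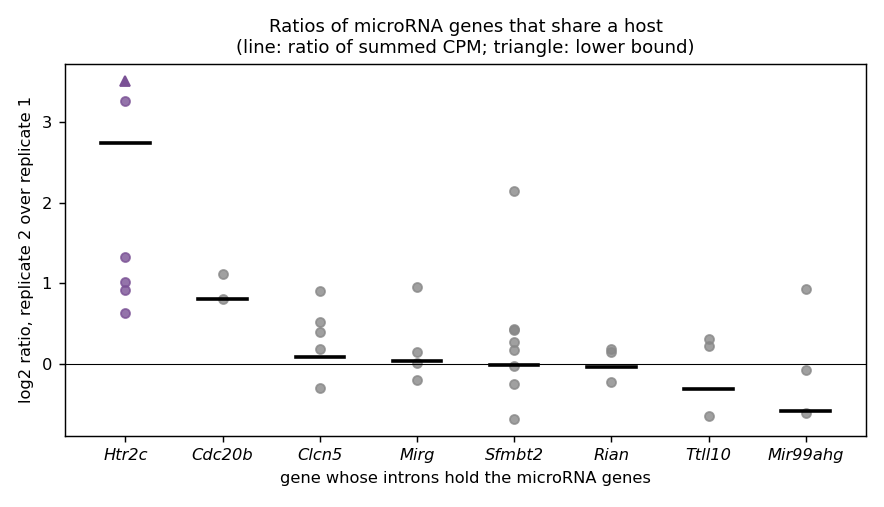
Log2 ratio, replicate 2 over replicate 1 (vertical axis), of the tested microRNA genes in the introns of 8 host genes (horizontal axis). Each point is a microRNA gene, and the line is the ratio of the summed CPM. The triangle, marked as a lower bound, is Mir1912 set against 3 counts in replicate 1, without the counting error of replicate 2. The line of Htr2c stands at 2.75 and that of Cdc20b, the next, at 0.80.

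Markers of the choroid plexus and of ciliated cells were also higher in replicate 2. The 7 microRNAs of this list summed to 5333 CPM in replicate 2, against 2582 CPM in replicate 1, or 1.05 as a log2 ratio, and all 6 tested members lay above 0, from 0.80 to 2.53, with 3 called. Over all 540 tested genes 57.2% lay above 0 and 11.5% were called higher. The list was chosen with earlier results of these data known. Mir204, a microRNA of the choroid plexus encoded in an intron of Trpm3, stood at 1408 CPM in replicate 2, against 409 CPM in replicate 1, and its log2 ratio was 1.79. Among the ciliated cell microRNAs, Mir34b had a log2 ratio of 1.76 and was called, on 178 counts in replicate 2 and 72 in replicate 1. Mir449a, Mir34c and Mir449c had log2 ratios of 0.80, 0.92 and 1.11 and were not called. Mir211 rests on 10 counts in replicate 2 and 2 in replicate 1, and Mir449b, with 6 counts in replicate 2, was at 0 in replicate 1. The ratio of this list is close in size to that of the Htr2c members without Mir1298 (1.01), and the ratio of Mir1298 exceeds that of every tested marker of the list. The part of these cells in the Htr2c ratios was not tested.

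The other cell type lists had summed log2 ratios of -4.01 to 0.87. The neuronal list had a log2 ratio of 0.37 in its sum, with 1 of 15 tested genes called higher (Mir132, at 1.25) and 1 lower (Mir153, at -2.30). Of these 15 genes 8 lay above 0, and without Mir139 the summed log2 ratio was -0.032, so the direction of the sum rested on that gene. The Mir124a, Mir128, Mir129, Mir138 and Mir218 genes share bases with other genes, so their ratios are uncertain. The same holds for Mir219a-1, Mir219a-2 and Mir486 in the lists that follow. The oligodendrocyte list had 0.75 with 0 of 3 called and Mir219a-1 at -0.97, and the endothelial Mir126a had -0.68 and was not called. The mural cell list had 0.15, with Mir145a of its 2 genes called higher and Mir143 at 0.091. The white blood cell list, drawn up as myeloid, had 0.87, with Mir223 and Mir150 of its 4 genes called higher. Mir142 stood at -0.33 and Mir155 at 0.10. Mir150, which is not particular to myeloid cells, held 2712 of the list's 3168 counts in replicate 2. Without Mir150 the sum of the list had 0.088. The red blood cell list had -4.01, with 2 of 3 genes called lower in replicate 2 and Mir486 at -0.15. The part of these cells in the ratios of the members was likewise not tested.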

How the data were processed

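Small RNA was counted in 2 libraries of 1 group. The deposited counts are raw reads per microRNA gene, 1 file per library. Per the notes deposited beside the counts, the genome was mm10, the annotation GENCODE M21, and each file came from its own library's reads. Which aligner, counter and trimming were used is not given in the sources used here. The stranded column with the larger gene total was taken as sense. Reads aligning to several places, 39.8% in replicate 2 and 37.7% in replicate 1, are outside gene counts.

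The 2202 identifiers all matched GENCODE M21. For log2 ratios, 0.5 counts were added and replicate 2 was divided by replicate 1. Intervals are exact, at the 95% level. With 1 group, edgeR's quasi-likelihood test has no contrast, so genes with at least 10 counts were compared by an exact binomial test, checked on simulated data. Named genes were the members, the 5 nearest to Mir1298 in ratio, the level neighbours of Mir1298 and Mir448, genes sharing a seed, the marker lists, and hosts of at least 3 microRNA genes. Members and lists were chosen with earlier results of these data known; Mir26a-2 and genes sharing bases 2 to 7 were named after their values were seen. Python 3.11.15, pandas 2.3.3, SciPy 1.17.1, ViennaRNA 2.7.2, R 4.3.3, and, for scaling alternatives, edgeR 4.0.16 and DESeq2 1.42.0 were used.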

Additional observations from a re-analysis of the deposited data

How the results depend on the processing

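The summed log2 ratio of the Htr2c members, 2.75 with library totals, was 2.58 with DESeq2 size factors and 1.01 without Mir1298, and it stayed above 0 under each scaling run. The number of genes called was 101, against 67 with a minimum of 50 counts and 301 with the adjusted p alone. Library totals put the median log2 ratio over all 540 genes at 0.17 and 61.4% of calls higher in replicate 2. TMM put them at 0.086 and 52.1%, and DESeq2 size factors at 0.0051 and 45.5%. Of the other alternatives for the levels and ratios of the 6 members with counts, 38 left the value within its spread or on the same side of the threshold, 8 moved a level through the choice of denominator, and 2 ended the call of Mir448. The leave-one-out values are not among these, since with 2 libraries each lies within 1 SD of the mean by construction. The tally does not measure stability. The changed denominators put the mean level of Mir1298 at 259 and 1420 CPM, against 741 CPM. These were counted as within its spread because its SD exceeds its mean, as it does for Mir1912. Unstranded counts of the members equalled their sense counts, so that alternative moved values only through the library totals. With 1 library left out, the members' share of counts ranged from 0.0226% to 0.152%, the share of Mir1298 among them from 61.5% to 88.4%, and the level of Mir1298 from 139.1 to 1343 CPM. No paired analysis was possible because the labels hold a single group. The sums without Mir139 and without Mir150 were chosen after seeing the data, and the sum without Mir204 and Mir211 was not planned. Ratios of Gm22650 and Mir1912 are limited by counts of 25 or fewer.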

Other observations

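Over bases 2 to 7, a shorter match than the seed, miR-448-3p shares its letters with miR-153-3p, one of the neuronal microRNAs. Capitals mark bases 2 to 7 and the base after them.
miR-448-3p: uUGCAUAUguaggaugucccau
miR-153-3p: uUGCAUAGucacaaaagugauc
Mir448 had 87.8 CPM in replicate 2, against 43.4 CPM in replicate 1, while Mir153 had 17.7 CPM in replicate 2, against 88.0 CPM in replicate 1. Mir448 was thus the more abundant in replicate 2 and the less abundant in replicate 1, with log2 ratios of 1.02 for Mir448 and -2.30 for Mir153. These counts belong to whole hairpin genes, so the levels of the 3p products themselves are not known. This pair was chosen after its values were seen, and no test was made of it.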
